A study of Mus musculus with 6 samples.

Results

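Macrophages from the visceral fat of male mice on a high-fat diet were compared after injections of 4-hydroxyestrone (4-OHE1), a catechol metabolite of the estrogen estrone, or of its ethanol vehicle (EtOH). The comparison used 4 of the 6 libraries of the study, 2 for each of these groups, and the 10931 of 24421 genes whose mean over these 4 libraries was at least 1 RPKM. RPKM is the number of reads in a gene's exons, scaled to exon length and to each library's tags. The genes nearest to this limit were 8430429K09Rik and Cpeb3 inside it, at means of 1 and 1.00 RPKM, and Sec22c and Gm14325 outside it, at 0.995 and 0.997. All mice were male C57BL/6N of 12 weeks, with no altered gene named, and all ate a diet with 60% of its energy as fat. They were injected under the skin of the flank every 6 days over 30 days with EtOH, with 4-OHE1 at 10 mg/kg, or, in the remaining 2 libraries, with estradiol (E2) at 10 mg/kg, which serves below as the other estrogen. Collagenase-digested visceral white adipose tissue was stained for CD45, and live cells positive for the macrophage surface proteins F4/80 and CD11b were sorted into a lysis reagent. Nothing in the labels tells if a group's libraries are of different animals or of pools, so each p-value reflects no more than how these libraries vary, and that variation may be technical.

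In obese fat, macrophages that take up lipid carry a program named for lipid-associated macrophages, with the receptor Trem2 and many lysosomal enzymes, while resident macrophages along blood vessels carry lectins and scavenger receptors. Inflammatory genes of macrophages are switched on by NF-kB, a family of transcription factors held in the cytoplasm by inhibitors. NF-kB in turn induces these inhibitors and other brakes along with chemokines. Glucocorticoids act through a nuclear receptor that induces a well-known set of genes, Fkbp5 and Zbtb16 among them, and restrains NF-kB targets. Catechol estrogens such as 4-OHE1 are made by hydroxylation of estrogens, bind estrogen receptors less tightly than E2, and can be oxidised to reactive quinones.

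Exon reads numbered 18697456 and 35293924 in EtOH and 5764342 and 4515276 in 4-OHE1. Exons held 84.8% ± 0.366 (SD, n = 2) of the tags in EtOH and 61.7% ± 1.19 in 4-OHE1, with E2 between them at 74.1% ± 2.41. Malat1, a noncoding RNA of nuclear speckles, stood at 200.1 and 198 RPKM in EtOH and 853 and 985 in 4-OHE1. Because the authors divided by all tags, the median log2 change of the 10931 genes was -0.43 on their scale, and -0.04 once RPKM were rescaled to each library's exon reads. A gene is said to have risen or fallen only where limma passed at an adjusted p under 0.05 on both scales in the same direction. Counts by limma without adjustment likewise need an unadjusted p under 0.05 on both scales in the same direction. Log2 changes are printed relative to exon reads, with 1 RPKM added before the logarithm, which makes the changes of low genes smaller. RPKM are printed as the authors scaled them, so a gene can stand lower in RPKM by more than its log2 change says. Of the adjusted p from each scale the larger is printed, SDs are over the 2 libraries of a group, and coordinates are of mouse build mm9 unless said otherwise. Genes that mark the sorted cells were present in all 4 libraries: Itgam, which encodes CD11b, stood at 109 and 109 RPKM in EtOH and 69.5 and 72.6 in 4-OHE1, and Ptprc, which encodes CD45, at 49.1 and 52.6 RPKM in EtOH and 38 and 31.3 in 4-OHE1. Adgre1, which encodes F4/80, fell from 303 ± 3.08 to 139 ± 7.07 RPKM (log2 change -0.66 ± 0.06 (SE), limma adjusted p = 7.1e-04). In such bulk libraries, fewer cells of a type and less RNA per cell cannot be told apart.

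Of the 10931 genes, 2175 (19.9%) changed: 641 (5.86%) rose and 1534 (14.0%) fell in 4-OHE1. By at least 2-fold 518 (4.74%) rose and 574 (5.25%) fell, and by at least 4-fold 66 (0.604%) rose and 132 (1.21%) fell. Brakes of inflammation and chemokines led the falls, and genes that respond to glucocorticoids were prominent among the largest rises. The edgeR test on reads recovered from the authors' tables called 1994 of the 2175 genes in the same direction and none of them in the opposite one. Without EtOH replicate 1 the counts were 207 risen and 344 fallen, and without EtOH replicate 2 they were 207 and 323. Without 4-OHE1 replicate 1 or 2 they were 791 and 852 risen and 2287 and 2396 fallen. On the authors' scale alone 641 genes rose and 4341 fell, and relative to exon reads alone 1416 rose and 1534 fell. A further 19 genes passed on both scales with opposite signs and are not counted. The limma fit uses a single spread per gene for all groups. Over 1140 abundant genes the median SD of replicates was 2.21% of the mean in EtOH and 6.2% in 4-OHE1. The part of this unequal spread in the p-values and counts was not tested.

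**Figure D1:**
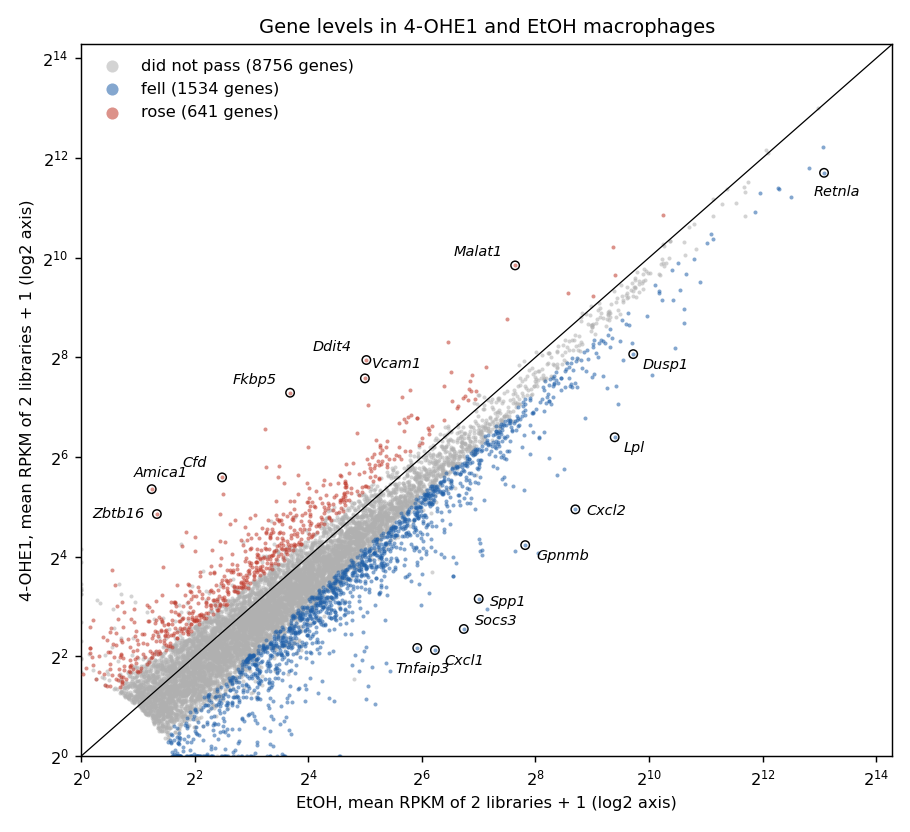
Mean RPKM + 1 of each of the 10931 genes in EtOH (horizontal, log2 axis) and 4-OHE1 (vertical, log2 axis), each point 1 gene and each mean over 2 libraries; red points rose, blue points fell and grey points did not pass, and the line marks equal RPKM. Circled genes include Cxcl2 at 416 and 29.9 RPKM and Fkbp5 at 11.8 and 156, and on this scale the median log2 change of all points is -0.43.

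The direction of the calls moved with exon length and with level. Among genes in the shortest quartile of exon length, from 47 to 1590 bases, 4.24% rose and 19.5% fell, around a median of -0.17 in log2. Among those in the longest, from 3995 to 21600 bases, 9.89% rose and 7.62% fell, around a median of 0.22. The share that fell went from 6.85% of genes at 1 to 3 RPKM through 25.0% at 30 to 100 RPKM to 38.8% of the 549 genes at 100 RPKM or more. The list counts that follow stand against 5.86% risen and 14.0% fallen of all genes, and those of abundant or short genes against these higher shares of falls. Of the falls, 63 genes were listed at 0 in both 4-OHE1 libraries, and 37 of those had a mean below 1 CPM, reads scaled to library size. Of 165 genes with exons under 200 bases, 163 of them named as loci of small RNAs, 8 rose and 43 fell. The part of exon share, depth and length in any single gene's change was not tested.

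The 15 largest rises among genes with enough reads were led by Amica1, a junctional adhesion molecule of leukocytes that stood at 1.44 and 1.29 RPKM in EtOH and 43.8 and 36.1 in 4-OHE1 (log2 change 4.56 ± 0.16 (SE), limma adjusted p = 2.4e-05). Its span overlaps that of Gm10684, which rose with it from 0.513 ± 0.029 to 9.77 ± 3.68 RPKM, and reads of the overlap cannot be assigned to either. Rnf169, a chromatin-binding protein of the DNA damage response, stood at 7.96 and 9.02 RPKM in EtOH and 97.4 and 89.2 in 4-OHE1 (log2 change 3.77 ± 0.11 (SE), limma adjusted p = 2.6e-05). Vcam1, the adhesion molecule that binds the integrin of monocytes and lymphocytes, stood at 31.4 and 30.5 RPKM in EtOH and 181 and 199 in 4-OHE1 (log2 change 3.04 ± 0.09 (SE), limma adjusted p = 1.9e-05). In each of these genes both 4-OHE1 libraries lay above both EtOH libraries, as choosing the largest called rises makes likely. Pik3ip1, an inhibitor of phosphoinositide 3-kinase, rose from 2.41 ± 0.375 to 17.6 ± 3.81 RPKM, and Hunk, a kinase, from 0.162 ± 0.0651 to 5.61 ± 0.993 RPKM. Muc6, a gel-forming mucin, rose from 4.62 ± 0.484 to 37.4 ± 0.934 RPKM, and Capn13, a calpain, from 0.552 ± 0.109 to 7.09 ± 0.984 RPKM. The rises of Fkbp5, Zbtb16, Ddit4, Arrdc2, Map3k6, Cfd and Pck1, which complete the group, are described with their lists below.

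Atf3, a stress-induced repressor of inflammatory genes, had the largest fall under the same rule, from 141 and 142 RPKM in EtOH to 5.23 and 8.14 in 4-OHE1 (log2 change -3.83 ± 0.19 (SE), limma adjusted p = 1.1e-04). Gdf15, a stress-induced cytokine, fell from 40.1 ± 2.91 to 2.63 ± 2.67 RPKM, with the 4-OHE1 libraries at 4.52 and 0.748. Rnase2a, an eosinophil-type ribonuclease with near copies, fell from 264 ± 10.7 to 15.8 ± 1.18 RPKM. Myo1e, a membrane-bound myosin, fell from 42.4 ± 0.132 to 2.25 ± 0.434 RPKM and Rgs1, a brake on chemokine receptors, from 199 ± 0.133 to 16.2 ± 4.98 RPKM. Gm5150 stood at 10.8 and 11.3 RPKM in EtOH and was listed at 0 in both 4-OHE1 libraries. Syngr1 (log2 change -3.35), Pcp4l1 (-3.47), Lhfpl2 (-3.19) and Cyp2s1 (-3.14), a cytochrome P450, also fell. In all 15 genes of this group every 4-OHE1 library lay below every EtOH library. Choosing the largest called falls makes this likely, so it adds nothing to their calls.

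The most abundant messages of these macrophages were held at high levels in both groups. Retnla, a resistin-like secreted protein of alternatively activated macrophages, led in EtOH and fell from 8676 ± 161 to 3332 ± 53.7 RPKM (log2 change -0.92). Lyz2, which encodes lysozyme, fell from 5765 ± 57.5 to 2366 ± 22.3 RPKM, and Apoe, the lipid carrier apolipoprotein E, from 8549 ± 182 to 4784 ± 54.6 RPKM. The ferritin chains Ftl1 and Fth1, the selenium carrier Sepp1 and the actin-binding Tmsb4x fell by 0.56, 0.21, 0.45 and 0.42 on the log2 scale. Cd74, the chaperone of MHC class II, stood at 8026 ± 136 RPKM in EtOH and 8174 ± 8.19 in 4-OHE1 and did not pass. H2-Aa, an MHC class II chain, stood at 4364 ± 56.1 RPKM in EtOH and 4380.1 ± 184 in 4-OHE1 and did not pass either. Mir6236 varied widely within groups, at 6149 and 2386 RPKM in EtOH and 5928 and 3177 in 4-OHE1.

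Several chemokines that draw neutrophils and monocytes fell in 4-OHE1. Of 24 chemokine ligands tested, 4 rose, 11 fell and 9 were not called. The share that fell, 45.8%, stands beside 14.0% of all genes and the share that rose, 16.7%, beside 5.86%, with a list median of -0.12. The median level of the list was 37.6 RPKM, and among all genes at 30 to 100 RPKM 25.0% fell. Cxcl1, a neutrophil attractant, stood at 71.7 and 76.5 RPKM in EtOH, 67.8 and 73.8 with E2 and 3.45 and 3.29 with 4-OHE1. Cxcl2, its close relative and the more abundant of the pair, stood at 399.8 and 432 RPKM in EtOH, 367 and 353 with E2 and 34.3 and 25.5 with 4-OHE1. For both genes the 4-OHE1 libraries were far below the EtOH and E2 libraries, which lay near each other. Against EtOH the log2 changes were -3.74 ± 0.11 (SE, limma adjusted p = 1.9e-05) for Cxcl1 and -3.32 ± 0.12 (limma adjusted p = 3.0e-05) for Cxcl2. Against E2 they were -3.86 (limma adjusted p = 8.8e-05) and -3.31 (limma adjusted p = 1.5e-04).

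The bases before the start of these genes, and of the NF-kB inhibitor gene Nfkbia described below, are shown because the promoter table holds the classical NF-kB site there. The 250 bases upstream of the annotated start were searched on both strands for GGGA and TTTCC with any 1 base between them, and matches are in capitals. These promoters are RefSeq's on build GRCm38.p6, at chr5:90890995-90891244 on the plus strand for Cxcl1, chr5:90903649-90903898 on the plus strand for Cxcl2 and chr12:55492648-55492897 on the minus strand for Nfkbia, written along the gene's strand.
Cxcl1: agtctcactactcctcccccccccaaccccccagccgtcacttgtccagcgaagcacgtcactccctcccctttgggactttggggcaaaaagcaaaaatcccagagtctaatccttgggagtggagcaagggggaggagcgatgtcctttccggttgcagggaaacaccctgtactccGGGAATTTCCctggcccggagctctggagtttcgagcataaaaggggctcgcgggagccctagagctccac
Cxcl2: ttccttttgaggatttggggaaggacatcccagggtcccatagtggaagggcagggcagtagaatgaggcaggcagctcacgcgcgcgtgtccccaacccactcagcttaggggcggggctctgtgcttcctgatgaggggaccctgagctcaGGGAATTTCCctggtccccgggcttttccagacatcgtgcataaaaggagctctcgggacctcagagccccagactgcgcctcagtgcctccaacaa
Nfkbia: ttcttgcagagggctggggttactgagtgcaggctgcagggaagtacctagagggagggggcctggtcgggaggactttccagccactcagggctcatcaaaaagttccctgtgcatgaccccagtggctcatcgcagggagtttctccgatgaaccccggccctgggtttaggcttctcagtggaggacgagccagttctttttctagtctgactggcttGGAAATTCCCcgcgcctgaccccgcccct
The Cxcl1 and Cxcl2 matches are the same letters, and begin 71 and 97 bases before the start. In Nfkbia the match, which begins 29 bases before the start, reads on the other strand. Of all 27025 promoters, 0.414% held the motif, as did 0.459% of the 8270 genes tested that have a promoter there. It was found in 3 of 18 chemokine promoters (16.7%, the other being Cxcl3, below the level limit) and in 11 of 1121 genes that fell (0.981%) against 2 of 492 that rose (0.407%). The AP-1 motif TGANTCA, searched in the same way, lay in 90 promoters of genes that fell (8.03%), in 34 of those that rose (6.91%) and in 5.5% of those tested. A match in letters does not show binding.

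Among monocyte chemokines, Ccl2 stood at 82 and 83.1 RPKM in EtOH and 24.5 and 20.7 in 4-OHE1 (log2 change -1.39 ± 0.11 (SE), limma adjusted p = 5.0e-04). Ccl7 fell from 55.1 ± 0.223 to 18.1 ± 8.75 RPKM and Ccl8, the most abundant of the fallen C-C chemokines, from 580.2 ± 19.4 to 198 ± 26.5 RPKM. Ccl4, an inflammatory C-C chemokine, fell from 26.4 ± 1.02 to 6.44 ± 2.13 RPKM, whereas Ccl3 stood at 76.3 and 78.7 RPKM in EtOH and 58.7 and 74.3 in 4-OHE1 and did not pass. Cxcl10, the interferon-inducible T cell attractant, fell from 13.3 ± 0.409 to 1.57 ± 1.7 RPKM. Ccl22 stood at 5.11 and 4.84 RPKM in EtOH and was listed at 0 in both 4-OHE1 libraries. Pf4, a platelet-type chemokine, stood at 1211 and 1229 RPKM in EtOH and 1305 and 1176 in 4-OHE1 and did not pass. Neither did Ccl6, at 1216 and 1257 RPKM in EtOH and 1208 and 1196 in 4-OHE1. The 4 chemokines that rose were Cx3cl1, fractalkine, from 1.23 ± 0.223 to 7.22 ± 0.684 RPKM, Ccl17 (log2 change 1.36), Ccl11 (1.29), the eosinophil attractant, and Cxcl12 (0.79), a stromal chemokine. Neither edgeR nor DESeq2 called Ccl17.

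**Figure D2:**
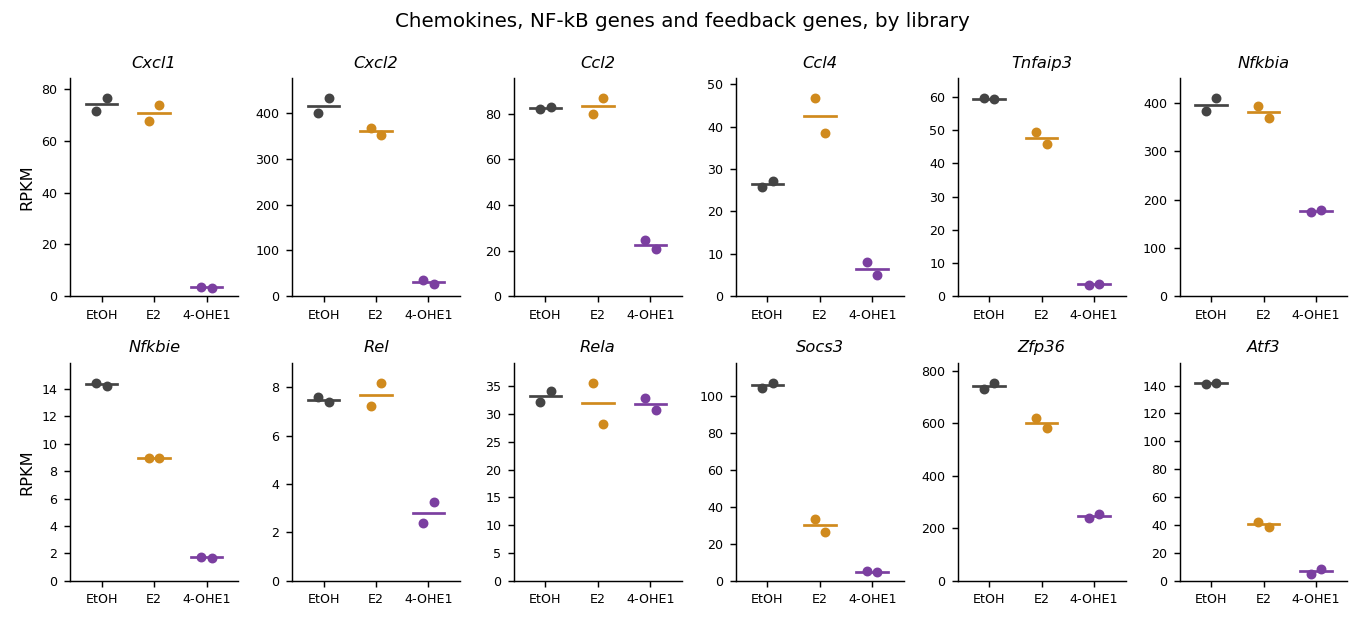
RPKM of 12 chemokine, NF-kB and feedback genes in each library; points are libraries, short lines are the means of 2 libraries, and each panel has its own RPKM axis from 0. In 4-OHE1 the points of Cxcl1, Tnfaip3 and Socs3 lie near the bottom of the axis, those of Rela lie at 32.9 and 30.7 RPKM beside 32.2 and 34.2 in EtOH.

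Several inhibitors of NF-kB fell along with these chemokines. Of 24 NF-kB subunits, inhibitors and their regulators, 0 rose, 9 fell and 15 were not called (0% rose and 37.5% fell, beside 5.86% and 14.0% of all genes), with a list median of -0.48. No member rose by limma on both scales at an unadjusted p under 0.05 either. Relative to exon reads alone limma called 2 higher, and edgeR called 3 higher. Tnfaip3, the ubiquitin-editing enzyme A20, stood at 59.7 and 59.4 RPKM in EtOH, 49.4 and 45.8 with E2 and 3.49 and 3.51 with 4-OHE1 (log2 change -3.38 ± 0.10 (SE), limma adjusted p = 1.9e-05). Nfkbia, which encodes the inhibitor IkB-alpha, stood at 383 and 409.7 RPKM in EtOH, 393 and 368 with E2 and 174 and 178 with 4-OHE1 (log2 change -0.71 ± 0.06 (SE), limma adjusted p = 6.2e-04). For Tnfaip3 the E2 libraries lay below EtOH and far above 4-OHE1, and for Nfkbia they overlapped EtOH. In both genes 4-OHE1 was below E2 by 3.25 (limma adjusted p = 8.9e-05) and 0.84 (0.00105) on the log2 scale. The inhibitor genes Nfkbie and Nfkbid fell by 2.20 and 1.32, the atypical inhibitors Nfkbiz and Bcl3 by 0.94 and 0.70, and Tnip3, an A20-binding protein, by 3.04. Of the subunits, Rel fell by 0.81 and Nfkb2 by 1.30, whereas Rela stood at 32.2 and 34.2 RPKM in EtOH and 32.9 and 30.7 in 4-OHE1, which did not pass (log2 change 0.39). Against E2, 8 members of this list and 12 of the chemokines were lower in 4-OHE1 and 0 and 2 higher, where 6.83% of all genes were lower and 2.57% higher.

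Of 18 secreted cytokines tested, 1 rose, 8 fell and 9 were not called (5.56% rose and 44.4% fell, beside 5.86% and 14.0% of all genes), and Il1a, Il1b, Il12b and Il23a were among the 11 below the level limit. Tnf, the inflammatory cytokine tumour necrosis factor, stood at 30.2 and 34.9 RPKM in EtOH, 47.6 and 42.7 with E2 and 17.1 and 15.7 with 4-OHE1 (log2 change -0.51 ± 0.11 (SE), limma adjusted p = 0.0193). Both 4-OHE1 libraries lay below EtOH, and the E2 libraries above it. The call of Tnf was lost without EtOH replicate 1 or 2, at limma adjusted p up to 0.206. Il10, an anti-inflammatory cytokine, fell from 18.5 ± 0.369 to 5.17 ± 2.95 RPKM. Il1rn, the antagonist of the interleukin-1 receptor, fell from 31.2 ± 0.32 to 1.22 ± 1.28 RPKM, and Osm, oncostatin M, from 6.6 ± 0.353 to 2.04 ± 0.581 RPKM. Growth factors fell too: Igf1 from 126 ± 4.33 to 43.5 ± 4.43 RPKM, Pdgfb from 12.9 ± 1.35 to 3.76 ± 0.459 RPKM and Tgfb1 from 151 ± 1.21 to 77.6 ± 2.98 RPKM. Vegfa, the angiogenic factor, was the member that rose, from 1.74 ± 0.257 to 3.85 ± 0.178 RPKM. Il6 stood at 2.69 and 3.74 RPKM in EtOH and 0 and 1.38 in 4-OHE1 and did not pass.

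Among fast-response feedback genes and transcription factors, part of the members fell. Of 22 MAP kinase phosphatases and feedback genes of cytokine signalling, 2 rose, 11 fell and 9 were not called (9.09% rose and 50% fell, beside 5.86% and 14.0% of all genes), with a list median of -0.77. Socs3, a brake on JAK-STAT signalling, stood at 105 and 107 RPKM in EtOH, 33.5 and 26.7 with E2 and 5.06 and 4.66 with 4-OHE1 (log2 change -3.80 ± 0.12 (SE), limma adjusted p = 1.9e-05). Dusp1, the phosphatase that turns off p38 and JNK, stood at 832 and 855 RPKM in EtOH, 734 and 681 with E2 and 278 and 256 with 4-OHE1 (log2 change -1.20 ± 0.05 (SE), limma adjusted p = 4.3e-05). Zfp36, which destabilises cytokine messages, stood at 732 and 753 RPKM in EtOH, 621 and 583 with E2 and 238 and 256 with 4-OHE1 (log2 change -1.13 ± 0.06 (SE), limma adjusted p = 1.2e-04). Socs3 was already low in E2, whereas Dusp1 and Zfp36 in E2 lay nearer to EtOH, and all 3 genes were lower in 4-OHE1 than in E2 (log2 -2.20, -1.14 and -1.02, limma adjusted p = 5.1e-04, 2.4e-04 and 5.7e-04). Dusp5, Dusp2 and Gadd45b fell by 2.97, 2.44 and 2.30. Socs2, a brake on growth hormone signalling, rose from 0.91 ± 0.22 to 6.75 ± 0.00354 RPKM and Zfp36l1 by 0.78. Of 22 immediate early transcription factors, 1 rose, 8 fell and 13 were not called (4.55% and 36.4%), with a median of -0.24. The median level of this list was 66.4 RPKM, and among all genes at 30 to 100 RPKM 25.0% fell. Besides Atf3 the falls were Fos, an AP-1 subunit (681 ± 3.3 to 171 ± 6.75 RPKM), Ier3, Junb, Klf6, Btg2, Klf2 and Jun, and Klf4 rose from 108 ± 1.6 to 149 ± 13.6 RPKM. Egr1 stood at 148 and 156 RPKM in EtOH and 127 and 119 in 4-OHE1 and did not pass.

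These counts shrank when an EtOH library was left out. Without EtOH replicate 1 and without replicate 2, in turn, 6 and 5 chemokines, 2 and 2 cytokines, 5 and 5 NF-kB genes, 7 and 7 feedback genes and 4 and 4 immediate early genes still fell, and 1 and 1 chemokines rose. On the authors' scale alone 14 cytokines, 14 NF-kB genes and 15 immediate early genes were lower, and relative to exon reads alone 8 chemokines were higher.

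Most sensors upstream of NF-kB did not pass. Of 26 genes of the toll-like receptor pathway, 2 rose, 3 fell and 21 were not called (7.69% rose and 11.5% fell, beside 5.86% and 14.0% of all genes). In turn without each EtOH library, 2 and 2 rose and 1 and 1 fell, and Tlr1 was called in neither case. Tlr2, a receptor for bacterial lipoproteins, stood at 37.7 and 36.8 RPKM in EtOH and 9.47 and 8.03 in 4-OHE1 (log2 change -1.56 ± 0.12 (SE), limma adjusted p = 4.4e-04), and its partner Tlr1 fell from 20 ± 1.53 to 5.82 ± 2.36 RPKM. The RNA sensor Tlr7 rose from 37.6 ± 0.951 to 75 ± 5.58 RPKM and the flagellin receptor Tlr5 from 11.8 ± 0.827 to 28.4 ± 4.76 RPKM. The endotoxin receptor Tlr4 stood at 10.2 and 10.6 RPKM in EtOH and 4.7 and 8.27 in 4-OHE1 and did not pass. Its co-receptor Cd14 stood at 331 and 331 RPKM in EtOH and 238 and 227 in 4-OHE1 and did not pass either. Of 10 inflammasome genes, 2 rose, 1 fell and 7 were not called (20% and 10%), and 1 and 1 rose and 0 and 0 fell without either EtOH library. Nlrp3, the sensor of the best-known inflammasome, rose from 5.28 ± 0.345 to 15.6 ± 0.216 RPKM, and the adaptor Pycard fell from 42.2 ± 0.0764 to 20.5 ± 1.02 RPKM. Its substrate Il1b was below the level limit.

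Interferon-stimulated genes were the inflammatory list with rises and no falls under the test. Of 33 tested, 7 rose, 0 fell and 26 were not called, with a list median of 0.25, and 21.2% rose beside 5.86% of all genes. Irf7, the factor that amplifies the interferon response, stood at 17.4 and 19.2 RPKM in EtOH, 19 and 17.3 with E2 and 29.4 and 27.2 with 4-OHE1 (log2 change 1.05 ± 0.11 (SE), limma adjusted p = 0.00749). Oas2, an RNA sensor, stood at 12.7 and 13 RPKM in EtOH, 18.4 and 16.9 with E2 and 17.7 and 25 with 4-OHE1 (log2 change 1.11 ± 0.18 (SE), limma adjusted p = 0.021). Without EtOH replicate 1 or 2 neither was called, at limma adjusted p up to 0.0915 for Irf7 and 0.129 for Oas2. Ifi47, Ifi204, Mx1, Stat2 and Irgm1 rose by 1.09, 1.08, 1.11, 0.98 and 0.98. By limma at an unadjusted p under 0.05, 3 members were lower, and by edgeR 1. Bst2, the most abundant member, stood at 98.8 and 97.9 RPKM in EtOH and 84.3 and 108 in 4-OHE1 and did not pass. With EtOH replicate 1 or 2 left out, the risen members numbered 1 and 1, and on the authors' scale alone 8 members were lower. The interferon-stimulated response element, GAAA and again GAAA with any 2 bases between on either strand, lay in the 250 upstream bases of 15 of 27 promoters of the list (55.6%), against 3.46% of all promoters. Of the 7 members that rose, Stat2 and Irgm1 are among these 15. Of all genes that rose 4.07% held it, of those that fell 3.21%, and of those tested 3.47%.

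Part of the genes listed here as glucocorticoid-responsive rose in 4-OHE1, and some fell. This list, like the others, was chosen with earlier results of these data known, so its share of rises is not an independent test. Of 22 tested, 10 rose, 4 fell and 8 were not called, with a list median of 0.79, and 45.5% rose beside 5.86% of all genes. The share that fell, 18.2%, was near the 14.0% of all genes. It was below the 25.0% of genes at 30 to 100 RPKM, where the list's median level, 40.5 RPKM, lies. Fkbp5, a chaperone of steroid receptors, stood at 12.2 and 11.4 RPKM in EtOH, 73.2 and 63.3 with E2 and 152 and 159 with 4-OHE1 (log2 change 4.07 ± 0.10 (SE), limma adjusted p = 1.9e-05). Zbtb16, the transcription factor PLZF, stood at 1.77 and 1.27 RPKM in EtOH, 5.44 and 5.72 with E2 and 27.5 and 28.4 with 4-OHE1 (log2 change 3.98 ± 0.17 (SE), limma adjusted p = 5.4e-05). Ddit4, an inhibitor of mTORC1, stood at 33 and 30 RPKM in EtOH, 183 and 165 with E2 and 246 and 246 with 4-OHE1 (log2 change 3.38 ± 0.08 (SE), limma adjusted p = 1.9e-05). In all 3 genes E2 lay between EtOH and 4-OHE1 with no overlap, and 4-OHE1 exceeded E2 by 1.44, 2.42 and 0.77 on the log2 scale (limma adjusted p = 0.0016, 0.00108 and 0.011). Against E2, Ddit4 was not called without E2 replicate 2 (limma adjusted p = 0.056). Arrdc2, an arrestin-like protein, rose from 8.51 ± 0.158 to 54.9 ± 1.18 RPKM and Map3k6, a stress kinase, from 3.03 ± 0.0332 to 20.2 ± 1.6 RPKM. Klf9, a transcription factor, rose from 22.6 ± 0.0629 to 49.1 ± 4.74 RPKM, the haemoglobin scavenger receptor Cd163 from 179 ± 6.33 to 433 ± 9.94 RPKM, and the clock gene Per1 from 26.7 ± 0.287 to 58 ± 5.16 RPKM. Sult1a1, a sulfotransferase that also acts on estrogens, and Errfi1, a brake on the EGF receptor, rose by 1.21 and 0.82.

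The 4 members that fell were Dusp1 and Nfkbia, which are also NF-kB or stress targets, Rgs2, a brake on G protein signalling (62.6 ± 0.465 to 14.6 ± 0.79 RPKM), and Angptl4, an inhibitor of lipoprotein lipase (101 ± 0.189 to 43.5 ± 0.173 RPKM). Tsc22d3, which encodes the glucocorticoid-induced leucine zipper, stood at 214 and 205 RPKM in EtOH and 228 and 229.9 in 4-OHE1, which did not pass (log2 change 0.59). Sgk1 at 38.1 and 37.5 RPKM in EtOH and 19.6 and 31.1 in 4-OHE1 and the metallothionein Mt1 at 657 and 714 RPKM in EtOH and 587 and 515 in 4-OHE1 did not pass either. When EtOH replicate 1 or 2 was dropped, 9 and 9 members rose and 4 and 4 fell. The motif of the glucocorticoid receptor, read as G, any base, ACA, any 3 bases, TGT, any base and C on either strand, lay in the 250 bases upstream of 4 of 21 promoters of the list (19.0%), against 0.44% of all promoters. They belong to Map3k6, Mt1, Sgk1 and Fam107a, the last below the level limit. The promoter of Map3k6 is shown because it was the only one with the motif among the 48 promoters of genes that rose at least 4-fold, with the match in capitals and beginning 181 bases before the start; it lies on GRCm38.p6 at chr4:133240568-133240817 on the plus strand.
Map3k6: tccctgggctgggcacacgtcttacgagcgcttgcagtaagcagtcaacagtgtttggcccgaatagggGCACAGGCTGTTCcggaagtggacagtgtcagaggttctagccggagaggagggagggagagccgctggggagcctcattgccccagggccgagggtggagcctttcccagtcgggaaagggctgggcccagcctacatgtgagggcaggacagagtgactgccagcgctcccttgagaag
None of the 1121 promoters of genes that fell and 4 of 492 (0.813%) of those that rose held the motif, against 0.278% of the 8270 tested.

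**Figure D3:**
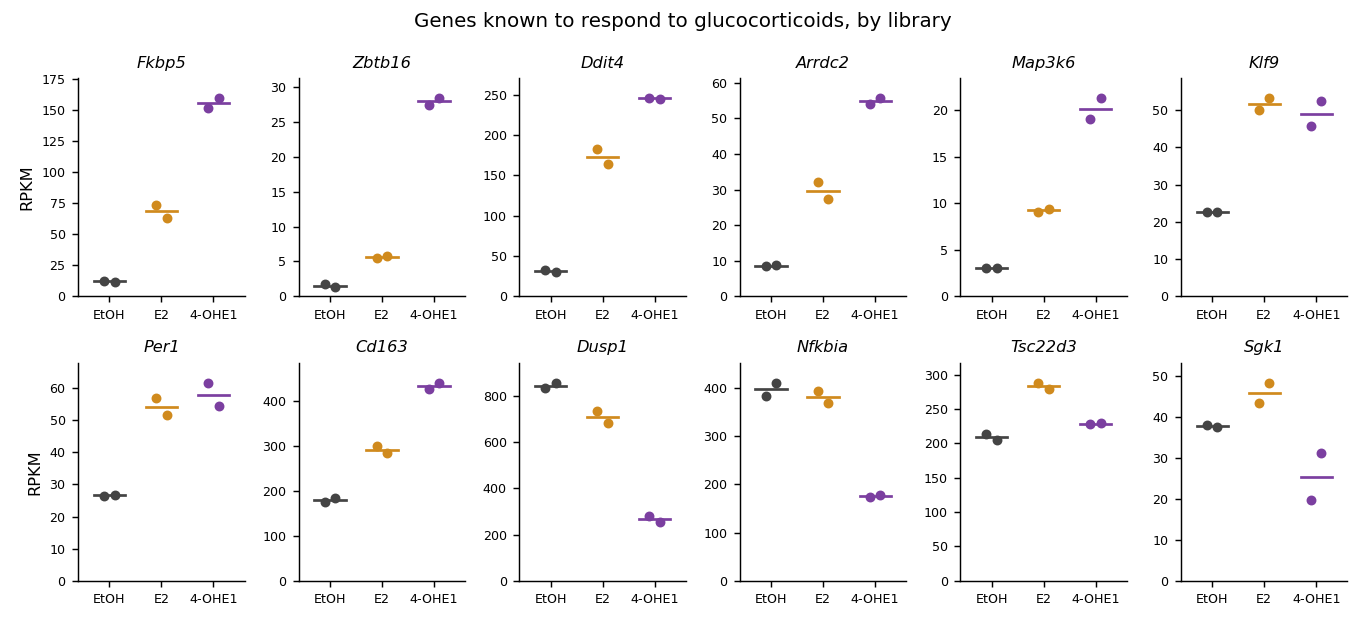
RPKM of 12 glucocorticoid-responsive genes in each library, with points for libraries, short lines for means of 2 libraries and a separate axis from 0 in each panel. Fkbp5, Zbtb16, Ddit4, Arrdc2 and Map3k6 step up from EtOH to E2 to 4-OHE1, Dusp1 and Nfkbia are lowest in 4-OHE1, and Tsc22d3 and Sgk1 did not pass.

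Adipocyte markers stood higher in the same libraries. Of 13 tested, 9 rose, 0 fell and 4 were not called (69.2% rose and 0% fell, beside 5.86% and 14.0% of all genes). The summed RPKM of these markers stood at 455 and 466 in EtOH and 945 and 955 in 4-OHE1, with 761 and 769.7 in E2. None fell by edgeR or by limma without adjustment, and none was at 0 in all 4 libraries. Cfd, which encodes adipsin, stood at 4.39 and 4.78 RPKM in EtOH and 49 and 45.5 in 4-OHE1 (log2 change 3.56 ± 0.11 (SE), limma adjusted p = 2.1e-05). Pck1, of glyceroneogenesis, stood at 1.58 and 1.88 RPKM in EtOH and 10.6 and 15.3 in 4-OHE1. Adipoq, adiponectin, stood at 5.05 and 4.77 RPKM in EtOH and 13.3 and 11.4 in 4-OHE1. Fabp4, which macrophages also express, held most of the sum, from 379 ± 6.17 to 628 ± 11.2 RPKM. Lep, leptin, stood at 2.5 and 1.75 RPKM in EtOH and 0.8 and 1.32 in 4-OHE1 and did not pass. The part of fat-cell RNA in the glucocorticoid-responsive and lipid droplet genes was not tested. Of 12 clock genes, 2 rose, 3 fell and 7 were not called (16.7% rose and 25% fell, beside 5.86% and 14.0% of all genes). Per1 and Ciart rose (log2 change 1.54 and 1.70), and Bhlhe40, Arntl and Dbp fell by 1.98, 0.82 and 0.60. Neither edgeR nor DESeq2 called Dbp. Without EtOH replicate 1 or 2, 1 and 1 clock genes rose and 0 and 0 fell. The labels give no hour of sampling. The spans of Ciart and Dbp overlap those of more abundant neighbours.

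The program of lipid-associated macrophages fell nearly as a whole. Of 24 genes of this list tested, 1 rose, 21 fell and 2 were not called, with a list median of -1.57, and 87.5% fell beside 14.0% of all genes. The median level of the list was 240 RPKM, and among all genes at 100 RPKM or more 38.8% fell. Trem2, the lipid receptor that marks these cells, stood at 292 and 307 RPKM in EtOH, 122 and 110.1 with E2 and 64.7 and 58.8 with 4-OHE1 (log2 change -1.81 ± 0.07 (SE), limma adjusted p = 3.7e-05). Gpnmb, a membrane glycoprotein of lipid-laden macrophages, stood at 220.2 and 229.8 RPKM in EtOH, 38.6 and 36.2 with E2 and 15.9 and 19.7 with 4-OHE1 (log2 change -3.16 ± 0.12 (SE), limma adjusted p = 3.6e-05). Spp1, osteopontin, stood at 122 and 132 RPKM in EtOH, 22.4 and 22.2 with E2 and 7.61 and 8.21 with 4-OHE1 (log2 change -3.43 ± 0.10 (SE), limma adjusted p = 1.9e-05). For these 3 genes the E2 libraries were also below EtOH, and 4-OHE1 lay below E2 without overlap, by 0.64, 0.79 and 1.16 on the log2 scale (limma adjusted p = 0.00508, 0.0134 and 0.00281). Against E2 the call of Trem2 was lost without E2 replicate 1 (limma adjusted p = 0.0552) and that of Gpnmb without EtOH replicate 1, EtOH replicate 2, E2 replicate 1 or E2 replicate 2 (up to 0.092). Of the list, 18 members were lower and 0 higher in 4-OHE1 than in E2. Lpl, lipoprotein lipase, fell from 673 ± 2.82 to 83.3 ± 0.829 RPKM, and the fatty acid carrier Fabp5 from 133 ± 4.66 to 16.7 ± 6.07 RPKM. The tetraspanin Cd9, the galectin Lgals3 and the integrin Itgax, which encodes CD11c, fell by 2.21, 1.81 and 1.89. Tyrobp, the signalling partner of Trem2, stood at 1553 and 1609 RPKM in EtOH and 1104 and 1018 in 4-OHE1 and did not pass. The scavenger receptor Cd36 stood at 619.7 and 616 RPKM in EtOH and 446 and 490.2 in 4-OHE1 and did not pass either. Fabp4, an adipocyte marker as well, was the member that rose. The count of falls was 19 and 18 without EtOH replicate 1 or 2.

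**Figure D4:**
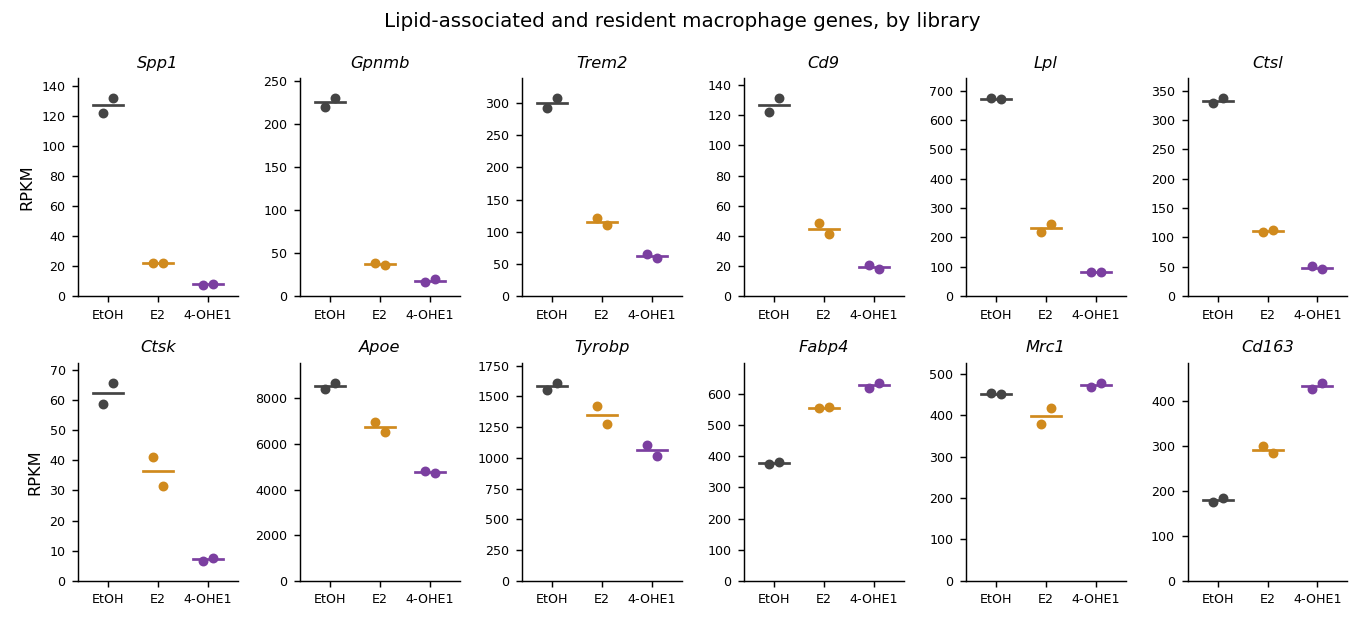
RPKM of 12 lipid-associated and resident macrophage genes in each library, drawn as points for libraries and short lines for means, with a separate axis from 0 in each panel. Spp1, Gpnmb, Trem2 and Cd9 step down from EtOH to E2 to 4-OHE1, Tyrobp and Mrc1 did not pass, and Fabp4 and Cd163 rose.

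Of 52 lysosomal hydrolases, V-ATPase subunits and their regulators, 1 rose, 28 fell and 23 were not called (1.92% rose and 53.8% fell, beside 5.86% and 14.0% of all genes). Of the falls, 11 were by at least 2-fold, and the list median was -0.35. The median level of the list was 113 RPKM, and among all genes at 100 RPKM or more 38.8% fell. The cathepsins Ctsl and Ctsk, which degrade proteins and matrix, fell from 333 ± 5.87 to 48.7 ± 3.12 RPKM and from 62.2 ± 4.86 to 7.16 ± 0.77 RPKM, and Ctsd from 1574 ± 21.2 to 410.1 ± 22.2 RPKM. Among subunits of the proton pump, Atp6v0d2, Atp6v1b2 and Atp6v1a fell by 1.96, 1.55 and 1.25. Tfeb and Mitf, transcription factors that drive lysosomal genes, fell from 25.3 ± 1.01 to 7.08 ± 1.01 RPKM and from 13.2 ± 0.012 to 4.59 ± 0.23 RPKM, while the related Tfe3 stood at 42.1 and 40.1 RPKM in EtOH and 24.7 and 28.8 in 4-OHE1 and did not pass. Lipa, the acid lipase that frees cholesterol from engulfed lipid, fell from 267 ± 5.25 to 83.1 ± 3.44 RPKM. Npc1, which exports that cholesterol, stood at 33 and 32 RPKM in EtOH and 22.6 and 21.9 in 4-OHE1 and did not pass. Its partner Npc2 stood at 203 and 202 RPKM in EtOH and 123 and 142 in 4-OHE1 and did not pass either. Ctsl, Ctsk, Ctsd, Lipa and Atp6v0d2 are on both lists. The E-box CACGTG lay upstream in 10 of 40 promoters of lysosomal genes (25.0%), in 11.6% of genes that fell, in 7.52% of those that rose and in 10.1% of those tested. Of the lysosomal list, 17 and 15 members fell without EtOH replicate 1 or 2.

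Of 22 cholesterol synthesis genes, 0 rose, 11 fell and 11 were not called (0% rose and 50% fell, beside 5.86% and 14.0% of all genes), with a median of -0.68. None was higher by edgeR or by limma at an unadjusted p under 0.05. Sqle, the squalene epoxidase, stood at 8.88 and 9.13 RPKM in EtOH and 0.238 and 0.591 in 4-OHE1 (log2 change -2.69 ± 0.24 (SE), limma adjusted p = 8.5e-04). Fdps, which makes farnesyl pyrophosphate, stood at 26.7 and 26.2 RPKM in EtOH and 2.81 and 2.29 in 4-OHE1 (log2 change -2.61 ± 0.15 (SE), limma adjusted p = 1.7e-04). Their 4-OHE1 and EtOH libraries did not overlap. Srebf2, the transcription factor of the pathway, fell from 23 ± 0.127 to 11.1 ± 1.39 RPKM. Of 17 LXR targets and lipogenic genes, 1 rose, 5 fell and 11 were not called (5.88% and 29.4%): the cholesterol exporter Abcg1 fell from 15.7 ± 0.0679 to 2.68 ± 0.087 RPKM and the receptor LXR-alpha itself, Nr1h3, from 21.3 ± 0.466 to 6.07 ± 4.01 RPKM, while Abca1, the other exporter, stood at 22.5 and 21 RPKM in EtOH and 19.6 and 15.4 in 4-OHE1 and did not pass. Scd1, a desaturase that is also an adipocyte marker, rose from 10.1 ± 0.551 to 47.7 ± 1.95 RPKM, and its relative Scd2 fell from 4.96 ± 0.627 to 0.454 ± 0.303 RPKM. Reads of paralogs as close as these may be shared. Nr1h3 was not called with no filter on low values or with the 4 EtOH and 4-OHE1 libraries alone. With EtOH replicate 1 or 2 left out, 3 and 3 sterol genes fell.

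Of 17 genes of eicosanoid synthesis, 1 rose, 2 fell and 14 were not called (5.88% rose and 11.8% fell, beside 5.86% and 14.0% of all genes). Among 17 genes of lipid droplets, 5 rose, 3 fell and 9 were not called (29.4% and 17.6%). The droplet coat protein Plin2 fell from 834 ± 24.8 to 314 ± 3.64 RPKM, Soat1, which esterifies cholesterol for storage, from 21.2 ± 0.828 to 6.47 ± 1.12 RPKM, and Hilpda, an inhibitor of lipolysis, from 31.9 ± 1.92 to 6.46 ± 2.28 RPKM. The lipases Pnpla2, Lipe and Mgll, which break down triglyceride in sequence, rose by 1.39, 1.31 and 1.40, and Cidec, of large fat-cell droplets, by 1.87. Lipe and Cidec are among the adipocyte markers whose summed level is given above. When EtOH replicate 1 or 2 was dropped, 3 and 3 of these genes rose.

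Other macrophage states moved in part. Of 19 genes of resident perivascular macrophages, 2 rose, 7 fell and 10 were not called (10.5% rose and 36.8% fell, beside 5.86% and 14.0% of all genes), around a median of -0.05. The median level of these genes was 266 RPKM, and among all genes at 100 RPKM or more 38.8% fell, so the share of falls was near that of genes as abundant. Mrc1, the mannose receptor, stood at 453 and 451 RPKM in EtOH and 469 and 478 in 4-OHE1 and did not pass. Lyve1, the hyaluronan receptor, stood at 256 and 259 RPKM in EtOH and 264 and 284 in 4-OHE1 and did not pass. Vsig4, a complement receptor, fell from 24.9 ± 0.558 to 6.37 ± 1.03 RPKM and Folr2, a folate receptor, from 1159 ± 28.5 to 625 ± 55.4 RPKM, while Maf, a transcription factor of these cells, rose from 114 ± 1.91 to 182 ± 3.18 RPKM. Of 18 genes of alternative activation, 2 rose, 9 fell and 7 were not called (11.1% and 50%), with a median of -0.55. Arg1, arginase, stood at 43.6 and 48.8 RPKM in EtOH, 171 and 157 with E2 and 14.6 and 13.5 with 4-OHE1 (log2 change -1.22 ± 0.09 (SE), limma adjusted p = 4.8e-04), below EtOH in 4-OHE1 and above it in E2. Chil3, a chitinase-like protein with a near copy in Chil4, had the same order at 6.08 and 6.19 RPKM in EtOH, 35.9 and 30 with E2 and 0.853 and 0.53 with 4-OHE1. Mgl2, a lectin, rose from 657 ± 9.58 to 1191 ± 2.63 RPKM. Against E2, Arg1 was lower in 4-OHE1 by 3.21 and Chil3 by 4.32 on the log2 scale (limma adjusted p = 8.8e-05 and 2.1e-04).

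Monocyte genes moved in part. Of 15 tested, 1 rose, 5 fell and 9 were not called (6.67% rose and 33.3% fell, beside 5.86% and 14.0% of all genes), and the list median was -0.04, as for all genes. Ccr2, the receptor that brings monocytes into tissue, stood at 35.3 and 35.2 RPKM in EtOH and 7.17 and 7.22 in 4-OHE1 (log2 change -1.73 ± 0.17 (SE), limma adjusted p = 0.00106), and S100a4, a calcium-binding protein, fell from 1061 ± 37.4 to 199 ± 27 RPKM. Of 20 core macrophage genes, 1 rose, 6 fell and 13 were not called (5% and 30%), around a list median of 0.02. Their median level was 276 RPKM, and the share of falls was below the 38.8% of all genes at 100 RPKM or more. Cebpa and Spi1, which encodes PU.1, are transcription factors of the lineage and fell from 129 ± 0.395 to 60.5 ± 5.43 RPKM and from 348 ± 5.47 to 192 ± 7.8 RPKM, and the scavenger glycoprotein Cd68 fell from 1161 ± 29.4 to 643 ± 24.5 RPKM. Csf1r, the receptor macrophages need to survive, stood at 776 and 783 RPKM in EtOH and 696 and 667 in 4-OHE1 and did not pass. Mertk, which binds dying cells, rose from 24.5 ± 0.308 to 41.4 ± 2.81 RPKM. Among 18 scavenger and efferocytosis receptors, 3 rose, 6 fell and 9 were not called (16.7% and 33.3%), with a median of 0.01. Their median level was 45.8 RPKM, and among all genes at 30 to 100 RPKM 25.0% fell. Cd5l, a secreted protein of tissue macrophages, fell from 10.3 ± 0.0933 to 0.568 ± 0.709 RPKM and the glucan receptor Clec7a from 74.1 ± 1.95 to 16.3 ± 0.77 RPKM, while Cd163, Mertk and Marco, a scavenger receptor, rose. Without EtOH replicate 1 or 2, 7 and 6 resident, 7 and 7 alternative activation, 5 and 5 monocyte, 3 and 3 core and 2 and 2 scavenger genes fell.

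Antigen presentation genes moved in part. Of 16 MHC class II and costimulation genes, 1 rose, 4 fell and 11 were not called (6.25% rose and 25% fell, beside 5.86% and 14.0% of all genes). Their median level was 156 RPKM, and the share of falls was below the 38.8% of all genes at 100 RPKM or more. The structural genes did not pass, with H2-Ab1 at 2622 and 2676 RPKM in EtOH and 2675 and 2682 in 4-OHE1 and H2-Eb1 at 2216 and 2246 RPKM in EtOH and 2321 and 2334 in 4-OHE1. Ciita, the master activator of these genes, fell from 15.8 ± 0.316 to 4.29 ± 1.78 RPKM, the proteases Ctss and Lgmn, which process antigen and its chaperone, fell by 0.67 and 0.61, Cd40 fell from 30.9 ± 0.675 to 10.2 ± 0.16 RPKM, and Cd86 rose from 47.3 ± 2.24 to 64 ± 3.35 RPKM. Of 18 complement genes, 0 rose, 4 fell and 14 were not called (0% and 22.2%). The median level of the list was 51.9 RPKM, and among all genes at 30 to 100 RPKM 25.0% fell. Among the falls were C3ar1, a receptor for C3a, from 99.5 ± 2.17 to 36.7 ± 0.402 RPKM and Cfb from 28.6 ± 2.15 to 12.3 ± 1.38 RPKM. The C1q chains were not called: C1qb stood at 3383 and 3512 RPKM in EtOH and 3004 and 2888 in 4-OHE1, a log2 change of 0.23 relative to exon reads and -0.23 on the authors' scale, past the threshold on both with opposite signs. Of 22 integrins and adhesion molecules, 2 rose, 8 fell and 12 were not called (9.09% and 36.4%). Itgb7, an integrin chain, fell from 9.1 ± 0.467 to 0.744 ± 0.622 RPKM, Cd44 from 60.6 ± 1.61 to 16.3 ± 0.655 RPKM, Icam1 from 25.4 ± 2.65 to 7.51 ± 0.979 RPKM, and Itgb2, the partner chain of CD11b, from 205 ± 5.98 to 97.8 ± 1.04 RPKM, while Vcam1 and Amica1 rose. Of 10 genes of the phagocyte oxidase and nitric oxide synthases, 0 rose, 4 fell and 6 were not called (0% and 40%). Their median level was 74.0 RPKM, and among all genes at 30 to 100 RPKM 25.0% fell. Ncf4, a cytosolic oxidase subunit, fell from 66.4 ± 0.14 to 16.4 ± 1.86 RPKM, the membrane subunit Cybb stood at 129 and 131 RPKM in EtOH and 74.2 and 78.6 in 4-OHE1 and did not pass, and Nos2 was below the level limit. No oxidase gene was higher by edgeR or by limma without adjustment. Of complement genes 5 were higher by edgeR and 0 by limma on both scales without adjustment, whereas relative to exon reads alone limma called 4 higher. The falls without EtOH replicate 1 or 2 numbered 2 and 2 MHC class II genes, 1 and 2 complement genes, 4 and 2 integrins and 1 and 1 oxidase genes, and 0 and 0 MHC class II genes rose.

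Some genes of energy metabolism fell, and most did not pass. Of 22 glycolytic genes, 2 rose, 10 fell and 10 were not called (9.09% rose and 45.5% fell, beside 5.86% and 14.0% of all genes), with a median of -0.57. Ldha, lactate dehydrogenase, stood at 241 and 238 RPKM in EtOH and 72.6 and 59.3 in 4-OHE1 (log2 change -1.40 ± 0.09 (SE), limma adjusted p = 2.9e-04). Pkm, pyruvate kinase, stood at 278 and 287 RPKM in EtOH and 84.8 and 94.1 in 4-OHE1 (log2 change -1.19 ± 0.08 (SE), limma adjusted p = 2.8e-04). In both the groups did not overlap. The glucose transporters went apart: Slc2a1 fell from 5.12 ± 0.651 to 1.5 ± 0.268 RPKM, and Slc2a3 rose from 1.26 ± 0.354 to 5.54 ± 0.61 RPKM. Pfkfb3, which makes an activator of glycolysis, rose from 12.5 ± 0.27 to 33.8 ± 0.594 RPKM. Eno1 also fell, and Eno1b, its near copy, cannot be told from it by such reads. Of 39 genes of the TCA cycle or of fatty acid oxidation, 1 rose, 11 fell and 27 were not called (2.56% and 28.2%). The falls included Dlat, of the pyruvate dehydrogenase complex, from 7.88 ± 0.087 to 1.89 ± 0.0339 RPKM, Fh1, fumarase, from 66.3 ± 2.46 to 23 ± 0.583 RPKM, and Hadha, of beta-oxidation, from 65.4 ± 0.865 to 27.6 ± 4.69 RPKM. Pcx, pyruvate carboxylase, rose from 0.813 ± 0.144 to 2.47 ± 0.472 RPKM.

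Of 76 oxidative phosphorylation subunits, 0 rose, 23 fell and 53 were not called, with a median of -0.23. The share that fell, 30.3%, stands beside 14.0% of all genes and 25.0% of genes at 30 to 100 RPKM, where the median level of the list, 77.1 RPKM over the 4 libraries, lies. By edgeR 1 was higher, and by limma on both scales without adjustment 0, whereas relative to exon reads alone limma called 2 higher. Atp5b, a catalytic subunit of ATP synthase, fell from 294 ± 6.53 to 147 ± 0.496 RPKM and Uqcrc1, of complex III, from 101 ± 0.0346 to 49.7 ± 0.909 RPKM. Of 76 mitochondrial ribosomal proteins, 0 rose, 15 fell and 61 were not called (0% and 19.7%), with a median of -0.30 and Mrpl53 the largest fall (-1.16). Of genes at 10 to 30 RPKM, where the list's median level of 15.2 RPKM lies, 14.7% fell. Of all genes in the shortest quartile of exon length 19.5% fell, and the part of length in this list was not tested. No mitochondrial ribosomal protein was higher by edgeR or by limma without adjustment. Of 25 mitochondrial chaperones and proteases, 0 rose, 2 fell and 23 were not called (0% and 8%). The falls were Hspd1, the chaperonin HSP60, from 35.3 ± 0.327 to 12.6 ± 3.24 RPKM and Hspa9, mortalin, from 48.5 ± 1.63 to 28.2 ± 1.02 RPKM, and the proteases Lonp1 and Clpp did not pass (log2 change 0.30 and -0.07). Of the chaperones, 1 was higher by edgeR and 1 by limma without adjustment. The call of cytosolic ribosomal proteins depended on the scale. Of 77 tested, 66 were lower on the authors' scale alone, around a median of -0.35 where that of all genes was -0.43. On both scales 0 rose and 0 fell by limma, and edgeR called 11 higher and 1 lower. With exon reads as the only scale 18 passed at an adjusted p under 0.05, all of them higher. By limma on both scales without adjustment 0 were higher and 1 lower. Their median relative to exon reads was 0.11. With EtOH replicate 1 or 2 left out, the falls numbered 7 and 7 in glycolysis, 2 and 2 in the TCA cycle list, 2 and 1 in oxidative phosphorylation, 0 and 1 in mitochondrial ribosomes and 0 and 0 among mitochondrial chaperones.

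The series title names mitohormesis, an adaptive response to mild mitochondrial stress, so lists of stress responses were included. Of 26 targets of NRF2, the factor that responds to electrophiles and oxidants, 1 rose, 13 fell and 12 were not called (3.85% rose and 50% fell, beside 5.86% and 14.0% of all genes), with a median of -0.36. The median level of the list was 45.5 RPKM, and among all genes at 30 to 100 RPKM 25.0% fell. Txnrd1, thioredoxin reductase, stood at 24.4 and 24 RPKM in EtOH, 16.6 and 17.8 with E2 and 7.83 and 7.16 with 4-OHE1 (log2 change -1.16 ± 0.12 (SE), limma adjusted p = 0.00158). Srxn1, sulfiredoxin, stood at 18.4 and 17.5 RPKM in EtOH, 14.9 and 12.9 with E2 and 5.21 and 5.8 with 4-OHE1 (log2 change -1.14 ± 0.14 (SE), limma adjusted p = 0.00243). Both were lowest in 4-OHE1 with no overlap with EtOH, and Srxn1 was not called without EtOH replicate 1 (limma adjusted p = 0.0592). Prdx1, a peroxiredoxin, fell from 427 ± 2.62 to 168 ± 18.7 RPKM, and Nfe2l2, which encodes NRF2, from 46.8 ± 1.63 to 21.8 ± 2.71 RPKM, as did its competitor Bach1 from 13.2 ± 0.397 to 6.65 ± 0.45 RPKM. Bach1 was not called with no filter on low values or with the 4 EtOH and 4-OHE1 libraries alone. Hmox1, haem oxygenase, stood at 325 and 336 RPKM in EtOH and 220.4 and 227 in 4-OHE1 and did not pass. Nqo1, a quinone reductase, stood at 1.17 and 1.61 RPKM in EtOH and 0.632 and 0.611 in 4-OHE1 and did not pass. Gsta3, a glutathione transferase, rose from 1.38 ± 0.0262 to 4.15 ± 0.821 RPKM.

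Of 21 cytosolic heat shock chaperones, 1 rose, 9 fell and 11 were not called (4.76% rose and 42.9% fell, beside 5.86% and 14.0% of all genes), with a median of -0.46. Hsph1, of the HSP110 family, stood at 11.2 and 11 RPKM in EtOH and 0.408 and 1.05 in 4-OHE1 (log2 change -2.63 ± 0.30 (SE), limma adjusted p = 0.00189), and Hspa8, the constitutive HSP70, fell from 633 ± 12.3 to 294 ± 5.87 RPKM. Cryab, a small chaperone, rose from 5.01 ± 0.363 to 8.84 ± 0.468 RPKM. Of 21 genes of the integrated stress response, 2 rose, 5 fell and 14 were not called (9.52% and 23.8%): besides Atf3 and Gdf15, Ppp1r15a, which ends the response, fell from 186 ± 6.91 to 68.4 ± 7.05 RPKM, Mthfd2 from 7.72 ± 0.163 to 2.32 ± 0.973 RPKM and Psat1 by 0.70, and Ddit4 and Sesn2, inhibitors of mTORC1, rose. Atf4, its central factor, stood at 127 and 132 RPKM in EtOH and 90.3 and 90 in 4-OHE1 and did not pass. Of 22 ER folding genes, 1 rose, 2 fell and 19 were not called (4.55% and 9.09%). Hspa5, the ER chaperone BiP, fell from 393 ± 2.6 to 237 ± 7.32 RPKM. Of 36 proteasome subunits, 1 rose, 16 fell and 19 were not called (2.78% and 44.4%), with a median of -0.40. Their median level was 51.7 RPKM, and among all genes at 30 to 100 RPKM 25.0% fell. Psmc5 fell from 64.6 ± 2.33 to 27.8 ± 1.47 RPKM and Psmc1 rose by 0.80. When EtOH replicate 1 or 2 was dropped, the falls numbered 5 and 6 NRF2 targets, 3 and 3 heat shock chaperones, 2 and 2 stress response genes and 1 and 1 proteasome subunits.

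Several cell cycle genes of DNA replication fell in 4-OHE1. Of 39 cell cycle genes tested, 1 rose, 11 fell and 27 were not called (2.56% rose and 28.2% fell, beside 5.86% and 14.0% of all genes). The falls were genes of DNA replication, together with the mitotic cyclin Ccnb1: Pcna, the sliding clamp, stood at 131 and 129 RPKM in EtOH and 46.5 and 49.2 in 4-OHE1 (log2 change -0.97 ± 0.08 (SE), limma adjusted p = 6.2e-04), and the helicase subunits Mcm2, Mcm3, Mcm4, Mcm5 and Mcm6 fell by 0.86, 0.96, 0.96, 1.05 and 1.08. The nucleotide enzymes Rrm1, Rrm2 and Tk1 fell by 0.72, 1.40 and 0.79, and Ccne1, the cyclin of entry to S phase, was listed at 0 in both 4-OHE1 libraries against 1.98 and 2.15 RPKM in EtOH. Tk1 was not called with 0.1 RPKM added, with the 4 EtOH and 4-OHE1 libraries alone, or by DESeq2. Of the other genes of mitosis, Bub1b rose and the rest did not pass. Mki67, the proliferation antigen, stood at 13.2 and 14.1 RPKM in EtOH, 8.52 and 7.84 with E2 and 15.3 and 16.8 with 4-OHE1. Ube2c, a ubiquitin enzyme of mitotic exit, stood at 27.4 and 27.9 RPKM in EtOH, 8.91 and 7.42 with E2 and 35.9 and 19.1 with 4-OHE1. Bub1b, of the spindle checkpoint, stood at 6.86 and 8.52 RPKM in EtOH, 4.01 and 4.32 with E2 and 10.7 and 14 with 4-OHE1. Bub1b rose against EtOH (log2 change 1.05 ± 0.20 (SE), limma adjusted p = 0.0355), and all 3 were higher in 4-OHE1 than in E2 (limma adjusted p = 0.00634, 0.0107 and 0.00649). Against EtOH, Bub1b was not called without EtOH replicate 1 or 2, E2 replicate 1 or 2, or 4-OHE1 replicate 2 (limma adjusted p up to 0.258). Against E2, Mki67 was not called without E2 replicate 1 (0.0523), Bub1b without E2 replicate 1 or 2 (up to 0.0651), and Ube2c without EtOH replicate 1, EtOH replicate 2, E2 replicate 1 or E2 replicate 2 (up to 0.093). In that contrast 8 cell cycle genes were higher and 2 lower. Without EtOH replicate 1 or 2, 3 and 3 cell cycle genes fell and 0 and 0 rose.

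Of 22 BCL2 family and p53 target genes, 4 rose, 2 fell and 16 were not called (18.2% rose and 9.09% fell, beside 5.86% and 14.0% of all genes). Trp53inp1, a p53-induced gene of autophagy, stood at 2.37 and 2.8 RPKM in EtOH and 19.3 and 23.8 in 4-OHE1 (log2 change 3.09 ± 0.20 (SE), limma adjusted p = 2.6e-04). Bmf, a pro-apoptotic BH3 protein, stood at 5.13 and 5.2 RPKM in EtOH and 26.8 and 21.9 in 4-OHE1 (log2 change 2.48 ± 0.16 (SE), limma adjusted p = 4.2e-04). The cell cycle inhibitor Cdkn1a rose from 50.7 ± 1.04 to 91.6 ± 4.9 RPKM and the survival factor Bcl2l1 from 22 ± 0.637 to 43.7 ± 4.67 RPKM, while Bid, a pro-apoptotic member, fell from 11.4 ± 2.31 to 3.14 ± 0.694 RPKM and Mcl1, a survival factor, from 157 ± 2.98 to 71.6 ± 5.53 RPKM. With EtOH replicate 1 or 2 left out, 4 and 4 of these genes rose and 1 and 1 fell.

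Genes of estrogen receptors and estrogen metabolism went both ways, and most did not pass. Of 17 tested, 3 rose, 3 fell and 11 were not called (17.6% rose and 17.6% fell, beside 5.86% and 14.0% of all genes). The counts were 2 and 2 risen and 0 and 0 fallen without EtOH replicate 1 or 2. Esr1, which encodes estrogen receptor alpha, stood at 1.24 and 1.1 RPKM in EtOH, 1.72 and 0.977 with E2 and 2.99 and 2.93 with 4-OHE1 (log2 change 1.23 ± 0.25 (SE), limma adjusted p = 0.0252). Esr1 was not called without EtOH replicate 1 or 2, at limma adjusted p up to 0.158. Ncoa1, a coactivator of steroid receptors, stood at 6.24 and 6.48 RPKM in EtOH, 9.74 and 11 with E2 and 22.6 and 23.9 with 4-OHE1 (log2 change 2.16 ± 0.14 (SE), limma adjusted p = 2.7e-04). Esr2 was below the level limit. Cyp1b1, which makes catechol estrogens, stood at 1.35 and 1.22 RPKM in EtOH and 1.65 and 2.23 in 4-OHE1 and did not pass. Nr3c1, the glucocorticoid receptor, stood at 19.4 and 18.6 RPKM in EtOH and 14.4 and 12.4 in 4-OHE1 and did not pass. Hsd17b12 and Hsd17b10, dehydrogenases of steroids and fatty acids, fell by 0.63 and 0.59, and neither was called without EtOH replicate 1 or 2 (limma adjusted p up to 0.131 and 0.14). Of 5 targets of the aryl hydrocarbon receptor tested, 0 rose and 0 fell by limma, 2 were higher by edgeR, and 1 was higher by limma without adjustment.

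Most of the tested long RNAs kept in the nucleus rose. Of 6 nuclear-retained long noncoding RNAs tested, 4 rose, 0 fell and 2 were not called (66.7% rose and 0% fell, beside 5.86% and 14.0% of all genes). A further 5 of the list were below the level limit. Malat1 rose by 2.66 (limma adjusted p = 2.9e-04), Neat1, the scaffold of paraspeckles, rose from 51.7 ± 2.88 to 104 ± 3.12 RPKM, and Firre from 0.942 ± 0.163 to 4.7 ± 0.865 RPKM. Of 38 SR proteins and hnRNPs, 8 rose, 5 fell and 25 were not called (21.1% rose and 13.2% fell, beside 5.86% and 14.0% of all genes). Those that rose included Srsf11 from 35.4 ± 2.3 to 80.5 ± 12.9 RPKM, Rbm25 from 47.5 ± 1.52 to 102 ± 4.94 RPKM and Son from 38 ± 1.74 to 57.4 ± 7.05 RPKM, proteins of nuclear speckles, and those that fell were Srsf9, Srsf1, Ddx17, Hnrnpk and Ddx5. These libraries also had the lower exon share, and its part in the rise of nuclear RNAs was not tested. Of 13 host genes of small nucleolar RNAs, 0 rose, 1 fell and 12 were not called (0% and 7.69%), while edgeR called 1 higher and 0 lower. At an unadjusted p under 0.05 limma had 1 higher. Of the nuclear-retained RNAs, 0 fell by edgeR and 0 by limma without adjustment. When EtOH replicate 1 or 2 was dropped, 3 and 2 splicing genes rose and 0 and 0 fell.

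Stromal cell markers were also present in these libraries. Of 14 tested, 1 rose, 7 fell and 6 were not called (7.14% rose and 50% fell, beside 5.86% and 14.0% of all genes). Their summed RPKM stood at 773 and 773 in EtOH and 439.6 and 425 in 4-OHE1. The most abundant was Gsn, the actin-severing protein gelsolin, which macrophages also express, at 318 and 313 RPKM in EtOH and 146 and 149 in 4-OHE1 (log2 change -0.63 ± 0.06 (SE), limma adjusted p = 8.7e-04), close to Adgre1 and above Itgam and Ptprc in all 4 libraries. The falls of stromal markers numbered 4 and 4 without EtOH replicate 1 or 2. Col1a1 fell from 26.4 ± 0.245 to 5.63 ± 1.15 RPKM and Col3a1 from 64.1 ± 0.68 to 19 ± 0.887 RPKM, both collagens, and Dpt, dermatopontin, rose from 28.7 ± 0.199 to 49.5 ± 0.77 RPKM. Endothelial markers numbered 8, of which 0 rose and 0 fell by limma on both scales. By edgeR 2 were higher and 1 lower, and by limma on both scales without adjustment 0 and 1. Of erythroid markers, 5 were tested and none passed by edgeR or by limma on both scales, with or without adjustment. On the authors' scale alone 2 were lower. Hba-a1, a globin with a near copy, stood at 31 and 32.4 RPKM in EtOH and 36.6 and 24.8 in 4-OHE1. Of the peritoneal macrophage markers, 4 were tested and none passed by limma on both scales, with or without adjustment. Relative to exon reads alone 1 was higher, on the authors' scale alone 1 was lower, and edgeR called 1 higher. The summed RPKM of these markers stood at 21.7 and 21.8 in EtOH and 19 and 19.2 in 4-OHE1. Among T cell markers Il7r fell, and Cd3e, Cd3d and Cd3g were below the level limit. Of mesothelial, B cell and neutrophil markers, 2, 1 and 1 were tested and none passed by edgeR or by limma, with or without adjustment, and of 2 dendritic cell markers tested 1 fell. The neutrophil genes Ly6g and Camp were at 0 in all 4 libraries, as were the eosinophil genes Prg2 and Epx, and no NK or mast cell marker reached the level limit. Prm1, a sperm protamine, stood at 0.114 and 0.122 RPKM in EtOH and 2.19 and 4.76 in 4-OHE1. The part of these cells in the falls and rises above was not tested.

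**Figure D5:**
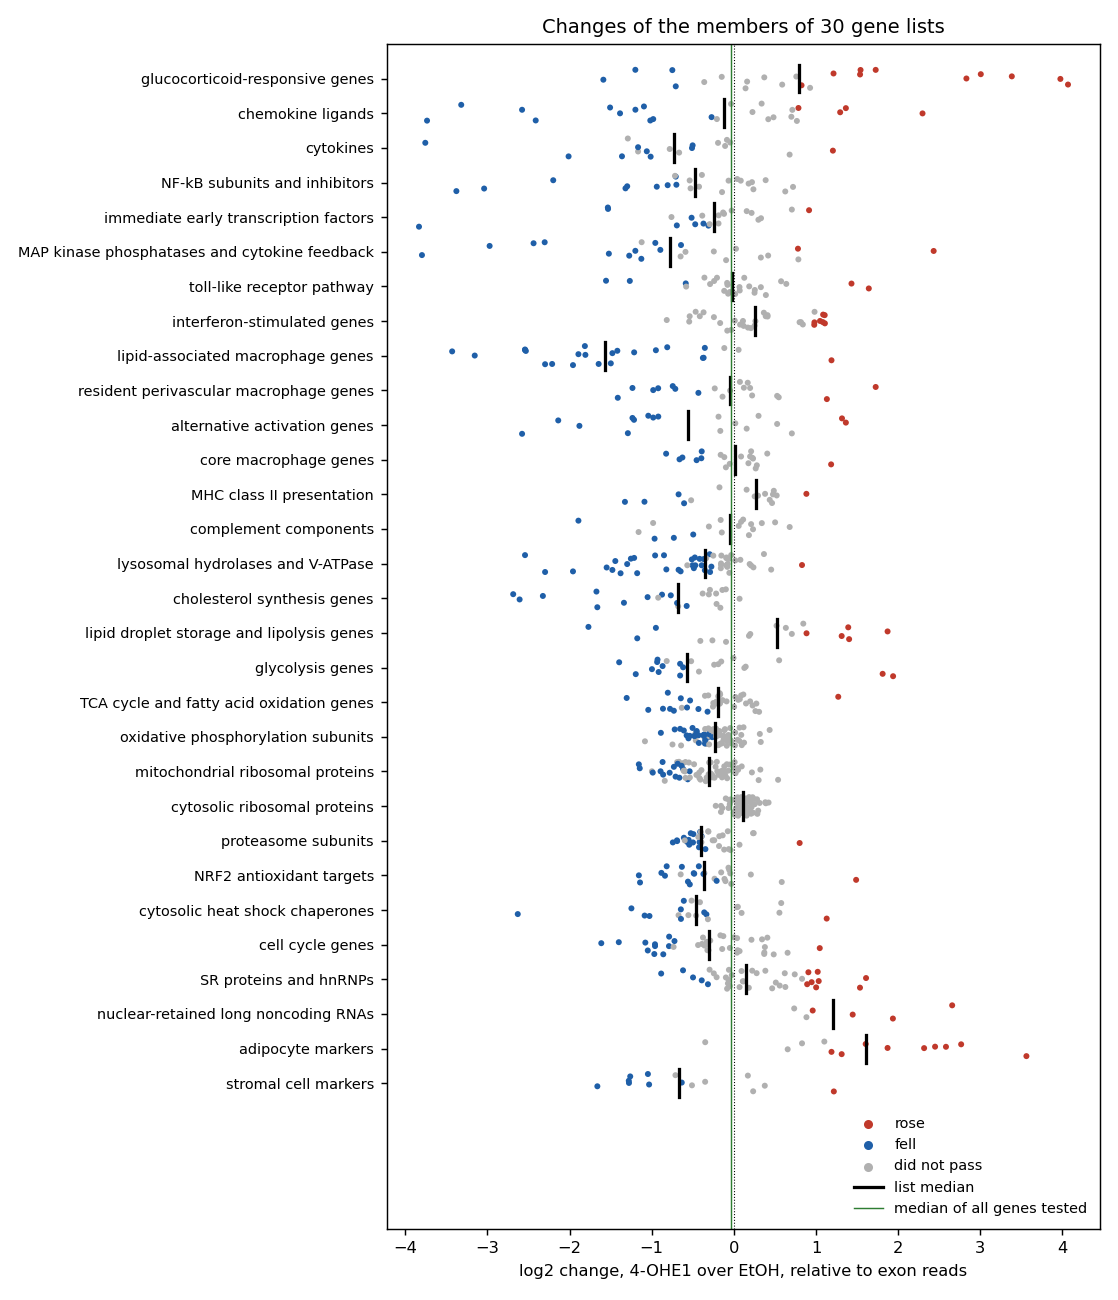
Log2 change of each member of 30 gene lists, 4-OHE1 over EtOH relative to exon reads, each point 1 gene; red points rose, blue points fell and grey points did not pass, black bars are list medians and the green line is the median of all 10931 genes at -0.04. Lipid-associated macrophage genes have a median of -1.57, adipocyte markers 1.61 and glucocorticoid-responsive genes 0.79, while ribosomal proteins have a median of 0.11.

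The E2 libraries allow a direct test between both estrogens at the same dose, time and route, E2 having a hydroxyl where estrone has a ketone and 4-OHE1 a further hydroxyl on the aromatic ring. In this contrast 1028 genes (9.4%) differed: 281 (2.57%) were higher in 4-OHE1 and 747 (6.83%) lower. The genes tested were chosen by their level in EtOH and 4-OHE1, so genes abundant only in E2 could be missed. Slpi, a secreted protease inhibitor, was among the most lowered and was picked out after its values were seen. It stood at 5.25 and 5.51 RPKM in EtOH, 47.9 and 38.7 with E2 and 0.125 and 0 with 4-OHE1 (log2 -5.54, limma adjusted p = 8.9e-05). Chil3 and Arg1, given above, also had E2 above both other groups. The E2 libraries carried more of the peritoneal macrophage markers: of 4 tested, 3 were lower in 4-OHE1 than in E2 and 0 higher, the summed RPKM of the 9 markers was 128 and 129 in E2 against 19 and 19.2 in 4-OHE1, and Gata6, their defining factor, was below the level limit. The part of such cells in this contrast was not tested. Against E2 the heat shock chaperones had 9 lower and 0 higher, the ER folding genes 8 and 0, the cytosolic ribosomal proteins 16 and 0, and the adipocyte markers 0 and 6. Fos stood at 684 and 679 RPKM in EtOH, 551 and 540.4 with E2 and 175 and 166 with 4-OHE1 and was lower in 4-OHE1 than in E2 by 1.41 (limma adjusted p = 8.9e-05). Tlr5, Nlrp3 and Klf9, which rose against EtOH, did not pass against E2, with log2 differences of 0.47 ± 0.14, 0.14 ± 0.13 and 0.19 ± 0.12 (SE). A difference that misses the threshold does not show that both compounds act alike. Without E2 replicate 1 the counts were 34 higher and 105 lower, without E2 replicate 2 they were 71 and 198, and without EtOH replicate 1 or 2, whose spread enters the same fit, 51 and 52 were higher and 183 and 181 lower.

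On mm9, the genes on which these results turn lie as follows, each value being a count over all exons of the named transcript. Of the chemokines and brakes, Cxcl1 (NM_008176) lies at chr5:91320271-91322141 and Cxcl2 (NM_009140) at chr5:91332925-91334964. Tnfaip3 (NM_009397) lies at chr10:18720717-18735216, Nfkbia (NM_010907) at chr12:56590396-56593634, Socs3 (NM_007707) at chr11:117827401-117830680 and Atf3 (NM_007498) at chr1:192994176-193007212. Of the glucocorticoid-responsive genes, Fkbp5 (NM_010220) lies at chr17:28535698-28623094, Zbtb16 (NM_001033324) at chr9:48462402-48644050 and Ddit4 (NM_029083) at chr10:59412423-59414518. Of the lipid-associated genes, Trem2 (NM_031254) lies at chr17:48485726-48491601, Gpnmb (NM_053110) at chr6:48986517-49008181 and Spp1 (NM_009263) at chr5:104864130-104870072.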

How the data were processed

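RNA sequencing libraries of sorted visceral fat macrophages were made with the KAPA mRNA HyperPrep kit, per the labels' protocols. Per the submitters' processing notes, the tools were STAR, HOMER, edgeR and DESeq2 and the build mm9; versions are not given in the sources used here. Per the file headers, HOMER counted exon reads with 1 transcript kept per gene, which the authors deposited as RPKM and as a normalised signal beside their own edgeR comparison; whether the counting used strand is not given in the sources used here. Divided by what 1 read is worth, all 119614 deposited signal values lay no more than 0.05 from a whole number, and these reads were used. The authors' deposited table also gives log2 fold changes and p-values from edgeR, per the file headers; these were not used. The 2 scales were tested with limma 3.58.1 (R 4.3.3, trend) on log2(RPKM + 1) over all 6 libraries, two-sided, with Benjamini-Hochberg adjustment over the 10931 genes, and edgeR 4.0.16 and DESeq2 1.42.0 on the recovered reads were alternatives, as were other pseudocounts, filters and leaving out each library; edgeR called 1705 genes higher and 1818 lower. The median gene had 140 reads in the shallowest library. RPKM and recovered reads rest on different transcripts for 2225 of the 10931 genes, 50 of them among the 277 genes named. The gene lists, members and tests were chosen with earlier results of these data known. Genes were named as the 15 with the largest change each way among those with a mean of at least 5 CPM (reads scaled to library size) that edgeR also called and 1 transcript in both tables, up to 4 called members per list in its main direction and 2 in the other, the most abundant member, and the 10 most abundant genes per group; 186 of the 277 follow this rule, and the others were added for their known roles after their values were seen. A few genes of the lists are not reported here. The limma and edgeR fits were tested on simulated data.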

Additional observations from a re-analysis of the deposited data

How the results depend on the processing

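The counts of genes that changed against EtOH depended most on the libraries and the scale. On the authors' scale alone 4982 genes changed, with 641 rises and 4341 falls, and relative to exon reads alone 1416 rose and 1534 fell. Leaving out each library in turn gave 530 to 3248 changed genes, with 207 to 852 rises and 323 to 2396 falls. By edgeR 3523 changed (1705 rose and 1818 fell), by DESeq2 3327 (1708 and 1619) and by edgeR with no filter on low counts 4189 (1785 and 2404). Against E2, the authors' scale alone gave 2425 genes (282 higher and 2143 lower), exon reads alone 606 and 747, the 4 libraries of the contrast alone 237 (61 and 176), edgeR 1748 (796 and 952), DESeq2 1821 (862 and 959) and edgeR with no filter 2521 (1066 and 1455). Leaving out each library gave 139 to 2275 genes, with 34 to 602 higher and 105 to 1673 lower. Replicate numbers were shared across groups, as was a number in the library codes, and no label says that they mark pairs. The deviations of same-numbered libraries were uncorrelated (-0.021 for EtOH and 4-OHE1). The noise of low counts enters that value, so it does not settle whether they are pairs. The main fit took them as unpaired. With the replicate number as a block 563 genes rose and 1381 fell against EtOH, and 216 were higher and 609 lower than in E2. Of the 234 genes named as risen or fallen, 139 were called under every alternative that tested them, 90 and 94 were not without EtOH replicate 1 and 2, and 2 were not by edgeR. The sign of some genes that did not pass, or of C1qb, turned with the setting, as log2 changes: on the authors' scale alone, Abca1 -0.31, Bst2 -0.045, C1qb -0.23, Ccl3 -0.23, Ccl6 -0.040, Cd36 -0.40, Csf1r -0.19, Egr1 -0.30, Hba-a1 -0.070, Lonp1 -0.13, Mt1 -0.32, Rela -0.061, Ube2c -0.074, and, against E2, Klf9 -0.072, Nlrp3 -0.11. Further, with edgeR with no filter on low counts, Cd36 -0.0059. Over the libraries left out in turn the log2 change of such genes ran, for Abca1 from -0.016 to 0.28, Cd36 from -0.030 to 0.15, Clpp from -0.44 to 0.31, Mir6236 from -0.047 to 1.33, Nr3c1 from -0.12 to 0.045, Ptprc from -0.22 to 0.022, Sgk1 from -0.49 to 0.20, Tlr4 from -0.62 to 0.14, Ube2c from -0.053 to 0.80. The cause of these differences was not tested. Either scale alone could lose no call, since a call needed both. Part of the naming rule asked for an edgeR call, so the few calls lost by edgeR are no independent check. Of the 234 named genes, 23 were not called with no filter on low values. With the 4 EtOH and 4-OHE1 libraries alone 13 were not called, and 10 with the replicate block.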
